A study of Mus musculus with 8 samples.

Results

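The genes described here gave a signal in pro-B(+) cells that exceeded the pro-B(-) line by 10-fold or more, and did not rise by 2-fold when Lmo2 was put into the pro-B(-) cells. Both lines are Ebf1-deficient mouse pro-B cell lines, of which pro-B(+) cells can enter the T lineage and pro-B(-) cells cannot. The genes were chosen by measured values: the mean log2 signal of pro-B(+) minus that of pro-B(-) (called A) had to reach 3.32, the mean of the Lmo2 vector minus that of the empty vector (called B) had to stay under 1, and the probe had to be well above background on both pro-B(+) arrays. Where a gene had several probes, the one with the highest mean signal of all 8 arrays stood for it. Symbols of several families (such as Hox, collagen, chemokine, integrin, MHC and S100 genes), together with Meis1, Hmga2 and Y-linked symbols, were left out. This left 143 of 20144 named genes. The number depends on how dim probes are treated: with normexp background correction and quantile normalization, 23 genes met the rule, 14 of them among the 143. A further 131 genes met the same demand on A but rose by 2-fold or more with Lmo2, and 31 genes with A past the threshold had left-out symbols, 11 of them with B under 1. Because A and B chose the genes, both differences are given as a description with no test.

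RNA came from 4 groups of cells with 2 arrays each, hybridised in the one-colour format to a whole mouse genome array. All groups lack Ebf1, a transcription factor needed to enter the B lineage, were derived from fetal liver progenitors and were grown with SCF, Flt3L and IL7. The pro-B(+) line had been kept on OP9 stromal cells and the pro-B(-) line on TD7, a thymic stromal line, so that T-lineage potential and stromal history cannot be told apart. Pro-B(-)/Mock cells (Mock) are pro-B(-) cells with the empty lentiviral vector, and pro-B(-)/LMO2 cells (LMO2) carry the same vector with Lmo2; in this vector the EF promoter drives the insert, followed by rat CD2 as a marker. The labels do not give the stroma of these transductants, whether it carried a Notch ligand, or whether the replicates came from separate cultures. For the genes that differed between the parental lines, the paper names 2 independent biological replicates. It does not say this of the transductant arrays. If replicates were technical, the p-values measure technical spread only. The parental arrays lay on 1 slide and the transductant arrays on another.

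LMO2 is a LIM-domain adaptor that binds no DNA itself but bridges GATA factors and E-box-binding bHLH dimers in haematopoietic progenitors. Early progenitors express low levels of genes of several lineages, and some of the genes described here are known from macrophages, dendritic cells and granulocytes. Signals are given as log2 intensity relative to the 75th percentile of each array, so that 0 lies at the upper quartile of all probes. Lmo2 itself gave 2.09 and 2.10 on the pro-B(+) arrays, 0.63 and 0.63 on the pro-B(-) arrays, 0.35 and 0.35 on the Mock arrays and 0.99 and 0.93 on the LMO2 arrays. The signal of this probe was thus higher with Lmo2 than with the vector alone on every array, but stayed under the pro-B(+) level. Whether the probe reads the Lmo2 insert of the vector was not examined, so the total Lmo2 level in LMO2 cells is not known.

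The 143 genes were mostly weakly expressed outside pro-B(+) cells. Their median level in pro-B(+) cells was -1.98, with a range from -4.70 for Rps4l to 4.68 for Lgals3, and 19 of the 143 lay above 0. The median of A was 4.14 (3.32 to 9.33) and that of B was 0.08 (-4.43 to 0.97). In pro-B(-) cells 96 genes (67.1%) were well above background on neither array, 9 on 1 array and 38 on both. For the 96 the parental fold is only a bound. With the lowest signal well above background in place of these dim values, the median of A was 3.53, and 56 of the 143 genes no longer reached 3.32. In RNA from whole cultures, fewer cells that express a gene and less RNA per cell cannot be told apart.

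Among the transductants 90 of the 143 genes were above background on none of the 4 arrays, and 79 of these were also above background on neither pro-B(-) array. The signal was measured on all 4 transductant arrays for 38 genes. Of the remaining 15, 10 were above background on more Mock than LMO2 arrays, 4 on more LMO2 than Mock arrays, and Ppfibp2 on 1 array of each. For the 90 dim genes B compares values near the floor, and "not restored" says only that no signal above background was reached with Lmo2. Among the 131 genes raised by Lmo2, 19 were dim on all 4 transductant arrays, 66 were measured on all 4 and 46 were above background on more LMO2 than Mock arrays.

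**Figure D1:**
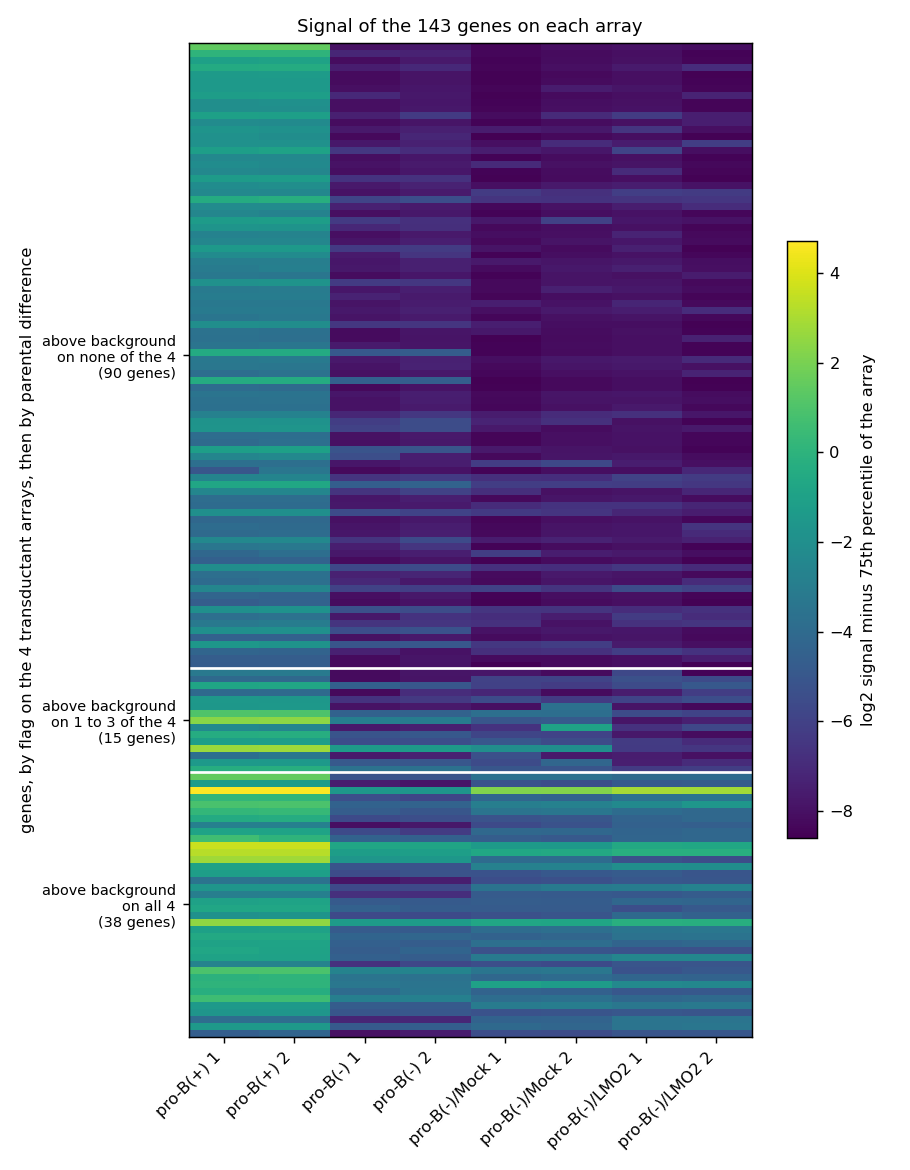
Signal of each of the 143 genes (rows) on each of the 8 arrays (columns), as log2 intensity minus the 75th percentile of the array. Rows are grouped by how many of the 4 transductant arrays were above background (none, 90 genes; 1 to 3, 15 genes; all 4, 38 genes) and ordered by the parental difference A within each group; both pro-B(+) columns are brightest in nearly all rows.

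Close to the limits of the rule, Kcne3 (A 3.32), Bmpr1a (3.33) and Fam20c (3.34) lay just inside, and Rnd3 (3.29), Derl3 (3.28) and Fbn1 (3.27) just outside. On the side of Lmo2, Cstdc4 (B 0.97), Slc11a1 (0.94) and Amot (0.90) were just inside, and Anxa2 (1.02), Spic (1.02) and Nectin2 (1.03) just outside. The genes named on either side of a threshold therefore differ little from each other on the log2 scale in that measure.

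**Figure D2:**
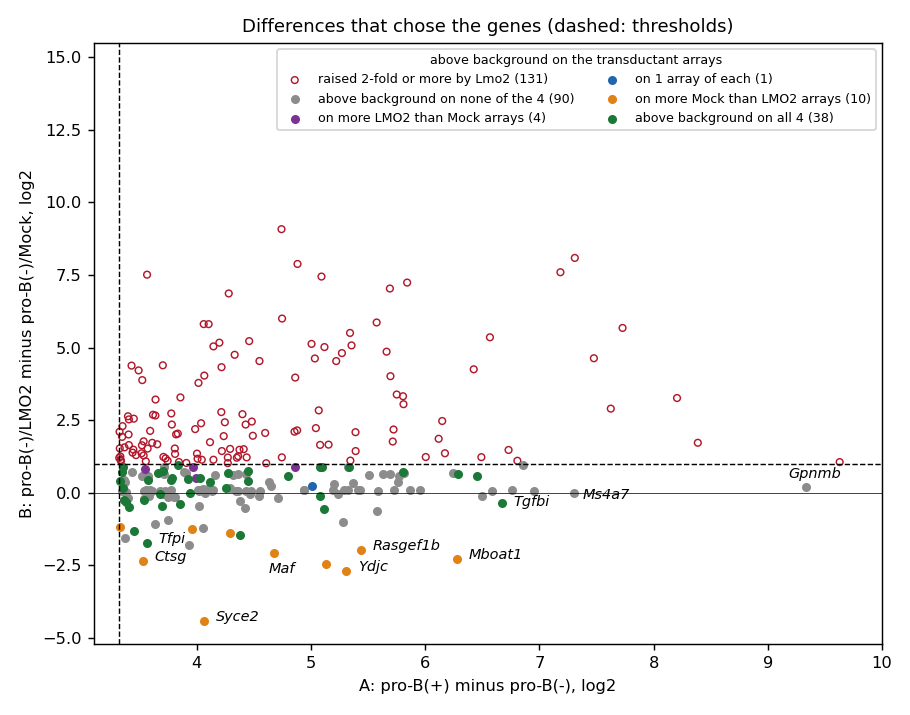
The 2 differences that chose the genes, A on the x axis and B on the y axis, both in log2 units of group means (2 arrays each); dashed lines mark the thresholds. Filled points are the 143 genes, coloured by the flag on the transductant arrays, and open circles are the 131 genes that Lmo2 raised; many grey points lie along B = 0, where both transductants were at the floor, and Syce2 has the lowest B (-4.43).

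Of the gene lists, drawn up with earlier results known, that of macrophage and dendritic cell genes held the most of the 143. It was also the longest list. Of 33 genes of this list on the array, 16 were among the 143, 14 were raised by Lmo2 and 3 were neither; 12 of the 16 were dim on all 4 transductant arrays. Gpnmb, a transmembrane glycoprotein of macrophages and osteoclasts, had the highest A of all 143 genes, with 1.44 and 1.48 on the pro-B(+) arrays, -8.01 and -7.73 on the pro-B(-) arrays, -8.40 and -8.05 on the Mock arrays and -7.94 and -8.12 on the LMO2 arrays. Its signal was above background in pro-B(+) cells alone, where it was at least 154-fold higher than in pro-B(-) cells. Csf1r, the receptor for the macrophage growth factor CSF1, was measured everywhere, with 3.65 and 3.66 on the pro-B(+) arrays, -0.75 and -0.84 on the pro-B(-) arrays, -1.35 and -1.40 on the Mock arrays and -0.59 and -0.66 on the LMO2 arrays. The pro-B(+) arrays were 21.8-fold higher than the pro-B(-) arrays, and the other 3 groups lay within 1 log2 unit of each other. Its other probes fell outside the rule: 1 had an A of 5.2 and a B of 1.23 and was above background on both LMO2 arrays but on 1 Mock array, and the other had an A of 0.96 and a B of 0.2.

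Trem2, a lipid-sensing receptor of macrophages and microglia, gave 0.91 and 0.95 on the pro-B(+) arrays, -4.41 and -4.39 on the pro-B(-) arrays, -2.90 and -2.77 on the Mock arrays and -2.28 and -1.60 on the LMO2 arrays. It was higher in Mock than in pro-B(-) cells and higher again in LMO2 cells, whose arrays differed from each other by more than those of the other groups. Slc11a1, a metal transporter of the phagosome membrane, was above background on all transductant arrays with a B of 0.94. The receptor tyrosine kinase Mertk and the complement chain C1qc, both used in the clearance of dying cells, the lectin-type receptors Clec4a3, Clec4b1, Clec10a and Cd209a, the oxidase subunit Cybb, the cytokine gene Il1b, the anaphylatoxin receptor C3ar1, the adhesion receptor Adgre4 and the platelet chemokine Pf4 were dim in all 3 pro-B(-) groups. Their pro-B(+) signals ranged from -4.54 for Pf4 to -1.38 for Cybb.

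Marker genes for macrophages were also highest in pro-B(+) cells. The summed linear signal of 7 macrophage markers was 22.2 to 22.8 times the 75th percentile on the pro-B(+) arrays, 1.20 to 1.24 on the pro-B(-) arrays, 1.35 on both Mock arrays and 2.37 to 2.38 on the LMO2 arrays. Since 3 of the 7 (Csf1r, Mertk and C1qc) are among the 143 genes, the other 4 were summed alone, and gave 9.55 to 9.99, 0.601 to 0.676, 0.953 to 0.964 and 1.71 to 1.72. This sum is not free of the rule either. Its brightest gene in pro-B(+) cells, Mpeg1 (2.73 and 2.81), also met the demand on A. The rise from Mock to LMO2 in this sum came from Mpeg1, which is among the raised genes (-4.53 and -4.47 in Mock, 0.34 and 0.38 in LMO2). Adgre1 was lower in LMO2 (-1.39 and -1.45) than in Mock (-0.21 and -0.20). C1qb gave -4.48 and -4.46 in Mock and -4.22 and -4.23 in LMO2 cells. All 7 were above background in pro-B(+) cells, and Mertk, C1qa and C1qc were above background in none of the other groups. Whether a few macrophage-like cells in the pro-B(+) cultures carry these signals was not tested. Markers of pro-B cells gave sums of 29.8 to 32.6 in the parental lines, 30.6 to 31.9 in Mock and 45.9 to 46.1 in LMO2, and 9 to 10 of 11 were above background in each group. Dntt, which adds nucleotides at antigen receptor joints, supplied 20.5 to 21.0 of the sum in LMO2 cells and 1.26 to 1.3 in Mock. Without it the sums were 29.8 to 32.4 in the parental lines, 29.3 to 30.7 in Mock and 25.1 to 25.4 in LMO2. Igll1 was below background in pro-B(+) cells, Cd79b in pro-B(-) cells and Cd79a in the transductants. Stromal markers, from the feeder side of the cultures, summed to 37.3 to 37.4 in pro-B(+), 41.6 to 43.4 in pro-B(-), 69.1 to 70.2 in Mock and 59.6 to 60.9 in LMO2 cells, with Lum and Dcn above background nowhere. Of this sum Thy1, which lymphoid cells also express, supplied 16.8 to 17.5 in pro-B(+), 33.1 to 35.1 in pro-B(-), 44.9 to 45.1 in Mock and 24.7 to 25.0 in LMO2 cells. Without Thy1 the order changed, with 19.8 to 20.6 in pro-B(+), 8.3 to 8.49 in pro-B(-), 24.1 to 25.1 in Mock and 34.9 to 35.9 in LMO2 cells. The part of stromal RNA in the results was not tested. Dntt and Thy1 were set aside after their values were seen. Mast cell and basophil markers summed to 0.205 to 0.225 in pro-B(+), 0.0848 to 0.0994 in pro-B(-), 0.0369 to 0.0567 in Mock and 0.336 to 0.337 in LMO2 cells. Cpa3, Mcpt8 and Hdc were above background on both arrays of pro-B(+) and LMO2 cells. Of these genes only Hdc was above background in pro-B(-) or Mock cells, on 1 Mock array. Prss34 was above background on both pro-B(+) arrays and 1 pro-B(-) array, Fcer1a on 1 pro-B(-) array only, and Ms4a2 on none. Of the 6 endothelial markers Kdr and Pecam1 were above background on all 8 arrays, and Cdh5, Tek, Tie1 and Emcn in no group. The endothelial sums ran from 1.28 to 1.68 in pro-B(+) to 2.10 to 2.21 in LMO2 cells.

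The MS4A family, membrane proteins of immune cells that cross the membrane several times, was represented by 4 genes, all of them dim outside pro-B(+) cells, and by none of the genes that Lmo2 raised. Ms4a7, found in macrophages, gave 0.04 and 0.03 on the pro-B(+) arrays, -7.19 and -7.34 on the pro-B(-) arrays, -8.36 and -8.20 on the Mock arrays and -8.06 and -8.5 on the LMO2 arrays. It was at least 57.3-fold over the pro-B(-) line, and no array outside pro-B(+) cells was above background. Ms4a6d (-2.02 and -2.03), Ms4a6c (-1.32 and -1.22) and Ms4a4b (-2.50 and -2.72 on the pro-B(+) arrays) were lower but had the same shape. Of the 10 MS4A genes on the array 6 were in neither group.

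The stefin A family, small intracellular inhibitors of cysteine proteases such as cathepsins, lies in a cluster of closely related genes on chromosome 16. Of 8 genes of the family list found on the array, 5 were among the 143 genes and 2 (Stfa1 and Csta2) were among the raised genes. Of the same cluster but outside the list, Cstdc5 was also among the raised genes, and Cstdc6 was above background in no group. Stfa2l1 gave -1.02 and -0.94 on the pro-B(+) arrays, -8.14 and -7.71 on the pro-B(-) arrays, -8.46 and -8.14 on the Mock arrays and -8.01 and -8.44 on the LMO2 arrays. It was above background in pro-B(+) cells alone, at least 28.4-fold over pro-B(-) cells. Stfa3 gave -0.44 and -0.28 on the pro-B(+) arrays, -5.89 and -5.47 on the pro-B(-) arrays, -6.61 and -6.68 on the Mock arrays and -6.62 and -6.49 on the LMO2 arrays, a difference of at least 40.0-fold. Stfa2 was measured in every group, with -0.27 and -0.29 on the pro-B(+) arrays, -3.94 and -3.44 on the pro-B(-) arrays, -4.36 and -4.55 on the Mock arrays and -4.98 and -4.93 on the LMO2 arrays, so that the parental difference was 10.6-fold and each transductant array lay under both pro-B(-) arrays. Cstdc4 (-0.45 and -0.44) and Csta3 (-4.18 and -4.12 on the pro-B(+) arrays) were dim elsewhere. Stfa1 met the threshold of B although none of its transductant arrays was above background (group means -8.29 for Mock and -7.23 for LMO2), whereas Csta2 was above background with Lmo2 (-3.84) but not without it (-6.50). Cstdc5 (A 8.39, B 1.72) was above background on 1 LMO2 array and on no Mock array. Near-identical members of this family may share signal on the array, and no probe sequence was examined here.

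The promoters of these genes are shown because the family holds members on both sides of the rule. The windows are the 250 bases before the RefSeq start site (GRCm38.p6) and lie at chr16:36408364-36408613 (minus strand), chr16:36455393-36455642 (minus strand), chr16:36156561-36156810 (plus strand) and chr16:36276898-36277147 (plus strand). Capitals mark the longest run that all 4 windows share, ATTATTGGCACAGAG, which begins 242 to 247 bases before the start site. The 4 windows were 80.4% to 89.4% identical to each other after global alignment, with the closest pair Stfa2 and Stfa2l1, and Stfa1 was 80.9% to 83.5% identical to the other 3. The run was found in 5 of 15966 promoter windows of genes on the array, the other being Cstdc5.
Stfa2: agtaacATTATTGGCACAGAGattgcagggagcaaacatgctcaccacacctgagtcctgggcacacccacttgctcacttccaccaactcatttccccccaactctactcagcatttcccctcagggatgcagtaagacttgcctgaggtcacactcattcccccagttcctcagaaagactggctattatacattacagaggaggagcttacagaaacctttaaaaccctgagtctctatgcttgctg
Stfa3: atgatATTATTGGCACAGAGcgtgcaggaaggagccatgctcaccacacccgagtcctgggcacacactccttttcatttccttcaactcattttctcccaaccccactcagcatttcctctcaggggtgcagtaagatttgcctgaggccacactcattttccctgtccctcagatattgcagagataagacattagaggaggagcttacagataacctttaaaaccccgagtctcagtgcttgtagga
Stfa2l1: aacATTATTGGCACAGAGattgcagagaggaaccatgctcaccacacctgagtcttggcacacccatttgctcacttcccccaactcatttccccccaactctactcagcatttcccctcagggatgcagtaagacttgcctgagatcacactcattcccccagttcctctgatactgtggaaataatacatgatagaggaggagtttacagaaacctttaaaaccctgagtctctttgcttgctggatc
Stfa1: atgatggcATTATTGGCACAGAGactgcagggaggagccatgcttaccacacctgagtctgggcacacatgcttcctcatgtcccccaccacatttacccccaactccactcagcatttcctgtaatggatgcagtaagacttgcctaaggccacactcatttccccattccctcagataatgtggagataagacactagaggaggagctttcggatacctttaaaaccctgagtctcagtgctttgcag

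By contrast, the Csta2 window was 45.3% to 48.5% identical to those of Stfa2, Stfa3 and Stfa2l1. The Gpnmb window, shown since the gene has the highest A, lies at chr6:49036268-49036517 (plus strand). Capitals mark its only match to the E-box letters CANNTG, 58 bases before the start site.
Gpnmb: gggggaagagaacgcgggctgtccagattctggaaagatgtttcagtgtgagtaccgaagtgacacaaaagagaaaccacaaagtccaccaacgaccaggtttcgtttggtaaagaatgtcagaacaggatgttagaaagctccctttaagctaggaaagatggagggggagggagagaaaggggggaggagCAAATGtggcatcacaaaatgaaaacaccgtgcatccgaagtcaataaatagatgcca

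Over all genes on the array a promoter window was found for 15966, including 116 of the 143 genes and 92 of the 131 raised genes; where a gene had several start sites, the most upstream was taken. The E-box letters CANNTG, a sequence read by bHLH dimers, occurred on either strand in 73.3% of the 116 windows, 68.5% of the 92 and 61.9% of all. The GATA letters AGATAA occurred in 10 of the 116 windows, 11 of the 92 and 8.8% of all, and the Runx letters TGTGGT in 13.8%, 26.1% and 11.8%. The PU.1-type ETS letters GAGGAA occurred in 37 of the 116, 46 of the 92 and 22.6% of all, and TATAAA in 12.1%, 14.1% and 11.7%. Matches to different motifs may overlap. The median GC content was 55.8%, 50.8% and 56.4%, and the ratio of observed to expected CpG exceeded 0.6 in 45 of the 116, 23 of the 92 and 48.6% of all windows. In each of these measures except the E-box and GATA letters the 116 windows lay between the raised genes and all genes; no test was made.

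Some members lie next to each other in the genome. In the order of protein-coding genes 13 of the 143 formed 7 adjacent pairs: Ccdc116 with Ydjc, Stfa2l1 with Cstdc4, Cstdc4 with Csta3, Stfa2 with Stfa3, Ms4a4b with Ms4a6c, Sox12 with Zcchc3, and Stag3 with Gpc2. Among the 131 raised genes 15 formed 8 such pairs, Csta2 with Stfa1 among them. By chromosome, 15 of the 143 lay on chromosome 6, 12 each on chromosomes 1 and 2, 11 on chromosome 5 and 10 on chromosome 16. The share over all genes on the array was computed neither for these counts nor for the pairs, and nothing is read from them.

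Granule proteins of granulocytes, mast cells and eosinophils were fewer. Of 26 genes on the array 5 were among the 143 and 7 among the raised genes. Camp, the antimicrobial peptide cathelicidin, was measured in all groups, with -0.56 and -0.57 on the pro-B(+) arrays, -4.32 and -4.21 on the pro-B(-) arrays, -4.43 and -4.22 on the Mock arrays and -3.57 and -3.55 on the LMO2 arrays. It was 13.0-fold over the pro-B(-) line in pro-B(+) cells and did not pass the test between pro-B(-) and Mock (log2 -0.06, SE 0.076, adjusted p = 0.54, limma), with LMO2 above both. The chitinase-like lectin Chil3 gave -0.93 and -0.88 on the pro-B(+) arrays, -4.53 and -4.67 on the pro-B(-) arrays, -3.73 and -3.83 on the Mock arrays and -4.33 and -4.15 on the LMO2 arrays; here Mock was above LMO2. Cathepsin G (Ctsg), a serine protease of azurophil granules, gave -1.48 and -1.39 on the pro-B(+) arrays, -4.91 and -5.02 on the pro-B(-) arrays, -5.55 and -4.20 on the Mock arrays and -7.47 and -6.99 on the LMO2 arrays. It was not above background with Lmo2, while the Mock arrays lay on either side of the pro-B(-) arrays. Ltf, the iron-binding protein lactoferrin, was dim outside pro-B(+) cells, where it gave -1.15 and -0.96, and Prg2, the eosinophil major basic protein, was above background on the pro-B(+) arrays and 1 LMO2 array.

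The list of lipid and eicosanoid genes gave 6 members, 1 of which, Npl, acts on sialic acid and not on lipids. Plin2, a coat protein of lipid droplets, gave 2.48 and 2.51 on the pro-B(+) arrays, -1.29 and -1.28 on the pro-B(-) arrays, -0.74 and -0.76 on the Mock arrays and -0.23 and -0.24 on the LMO2 arrays. The groups did not overlap and stood in the order pro-B(-), Mock, LMO2 and pro-B(+). Pecr, an enzyme of peroxisomal fatty acid elongation, gave 0.06 and 0.04 on the pro-B(+) arrays, -3.31 and -3.49 on the pro-B(-) arrays, -0.99 and -1.22 on the Mock arrays and -2.36 and -2.45 on the LMO2 arrays, so that Mock came closest to pro-B(+) cells and LMO2 lay between Mock and pro-B(-). The prostacyclin receptor gene Ptgir (-1.97 and -1.80), the acyl-CoA thioesterase Acot1 (-3.19 and -3.12) and the sialic acid lyase Npl (-1.96 and -1.99 on the pro-B(+) arrays) were above background on no transductant array. The acyltransferase Mboat1 was above background on a single Mock array (-8.07 and -3.62 on both), and its B of -2.29 rests on that array.

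Adhesion, vascular and lymphocyte genes were present in small numbers. Tgfbi, an extracellular matrix protein that binds integrins, had the highest A among genes measured on all 4 parental arrays (6.67), with 1.49 and 1.53 on the pro-B(+) arrays, -5.16 and -5.16 on the pro-B(-) arrays, -3.64 and -3.62 on the Mock arrays and -4.0 and -3.94 on the LMO2 arrays. Both transductants lay above pro-B(-) cells and at least 5 log2 units under pro-B(+) cells. The cell adhesion genes Alcam (-2.40 and -2.50) and F11r (-4.28 and -4.42 on the pro-B(+) arrays) were dim elsewhere. Tfpi, the inhibitor of the tissue factor pathway of coagulation, gave 0.93 and 0.94 on the pro-B(+) arrays, -2.66 and -2.58 on the pro-B(-) arrays, -3.41 and -3.31 on the Mock arrays and -5.24 and -4.95 on the LMO2 arrays, and was thus lower in Mock than in pro-B(-) cells and lowest in LMO2 cells. The growth factor gene Pdgfb was dim in pro-B(-) cells (-7.58 and -7.84) but was measured in Mock (-5.27 and -5.46) and LMO2 (-4.85 and -4.73), under the pro-B(+) arrays (-1.27 and -1.24). The endothelin receptor Ednra was seen in pro-B(+) cells alone (-3.46 and -3.36).

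Of the NK and T-cell list 3 of 21 genes were among the 143 and 8 among the raised genes, Tcf7, Cd3g and Cd7 among the latter. Icos, a costimulatory receptor of T cells, gave -2.89 and -2.88 on the pro-B(+) arrays, -6.76 and -6.88 on the pro-B(-) arrays, -4.79 and -4.82 on the Mock arrays and -4.92 and -4.73 on the LMO2 arrays. The transductants overlapped, and neither pro-B(-) array was above background. The inhibitory receptor Btla (-2.02 and -1.94) and the T-box factor Eomes (-4.26 and -4.34 on the pro-B(+) arrays) were above background in pro-B(+) cells only.

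**Figure D3:**
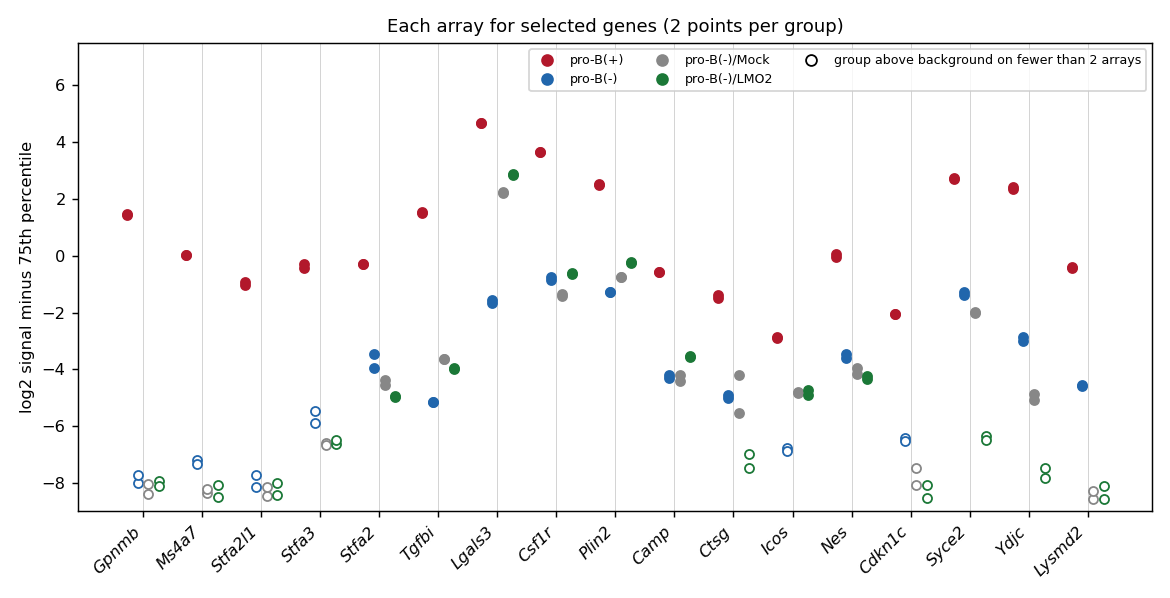
Signal of 17 of the 143 genes on each array, as log2 intensity minus the 75th percentile, with 2 points for each of the 4 groups; open points belong to a group above background on fewer than 2 arrays. The pro-B(+) points are the highest for each gene shown, and LMO2 lies above Mock for Lgals3, Csf1r, Plin2 and Camp but below it for Ctsg, Syce2 and Ydjc.

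Genes known from neurons and the cytoskeleton gave 8 members, 6 of them dim on all transductant arrays. Nes, the intermediate filament protein nestin, gave -0.04 and 0.07 on the pro-B(+) arrays, -3.46 and -3.58 on the pro-B(-) arrays, -4.15 and -3.95 on the Mock arrays and -4.25 and -4.36 on the LMO2 arrays, and the transductants lay below the pro-B(-) line. Crmp1, which acts in axon guidance, gave -0.38 and -0.34 on the pro-B(+) arrays, -5.13 and -4.93 on the pro-B(-) arrays, -5.81 and -5.95 on the Mock arrays and -7.77 and -8.16 on the LMO2 arrays, with LMO2 not above background. Insm1, a zinc finger repressor of neuroendocrine cells, was measured in the parental lines alone (-1.15 and -1.07 on the pro-B(+) arrays and -5.15 and -5.10 on the pro-B(-) arrays). The ubiquitin hydrolase Uchl1 gave -2.47 and -2.48 on the pro-B(+) arrays and was dim in the other groups.

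Of the transcription factors 7 of 25 listed genes were members, and none of the 7 was measured on all transductant arrays. Nkx6-2, a homeodomain factor, gave -1.19 and -1.14 and Ahrr, the repressor of the aryl hydrocarbon receptor, -3.59 and -3.71 on the pro-B(+) arrays, with no signal above background elsewhere. The bZIP factor Maf was above background on 1 Mock array (-6.66 and -0.96 on both), where it exceeded the pro-B(+) arrays (-2.30 and -2.55), so that its B of -2.45 rests on that array. Cdkn1c, a cell cycle inhibitor, was the only member among 27 imprinted genes on the array and gave -2.04 and -2.06 in pro-B(+) cells.

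Receptors and G-protein signalling contributed 10 members. Rasgef1b, an exchange factor for Ras-family proteins, gave 1.03 and 1.0 on the pro-B(+) arrays, -4.44 and -4.41 on the pro-B(-) arrays, -3.76 and -3.78 on the Mock arrays and -5.58 and -5.91 on the LMO2 arrays. LMO2 was the lowest group, and 1 of its arrays was not above background. Gpr65, a proton-sensing receptor of leukocytes, gave -0.90 and -0.87 on the pro-B(+) arrays, -5.64 and -6.27 on the pro-B(-) arrays, -4.10 and -4.14 on the Mock arrays and -4.29 and -4.15 on the LMO2 arrays, with no signal above background in pro-B(-) cells and both Mock arrays just above the LMO2 arrays. The kinase Prkcb, which acts downstream of antigen receptors, was measured in the parental lines (-1.57 and -1.77 and -5.08 and -5.00) but in neither transductant. The exchange factors Rasgef1a, Rasgrp1 and Ralgps2, the G-protein subunit Gnb4 and the Wnt receptor Fzd10 were dim on all transductant arrays. Among paired immunoreceptors, Sirpb1b (-3.92 and -4.02 on the pro-B(+) arrays) was the only member, against 8 of the raised genes.

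**Figure D4:**
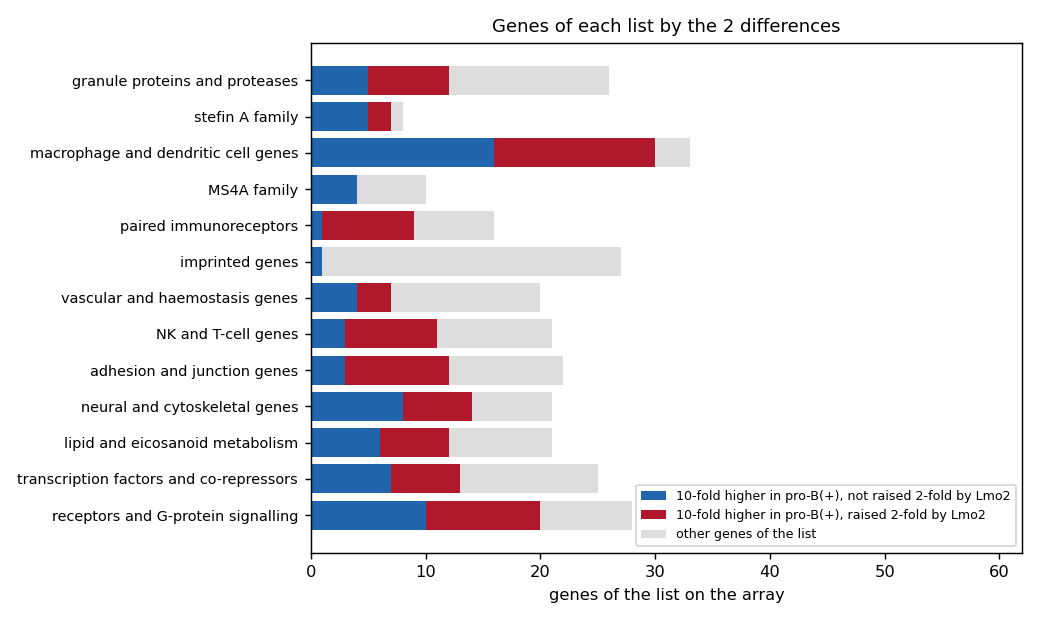
Number of genes of each list on the array (x axis), split into the 143 genes (blue), the 131 raised genes (red) and other genes (grey). Macrophage and dendritic cell genes hold the most of the 143 (16 of 33), and paired immunoreceptors and NK and T-cell genes hold more raised genes (8 each) than members (1 and 3).

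The 13 lists hold 270 genes on the array, of which 70 were among the 143, 77 among the raised genes and 123 in neither group. Over the 200 list genes outside the 143, 155 were tested between the parental lines, and 131 were called higher and 12 lower in pro-B(+) cells (limma, adjusted p under 0.05), against 25.6% higher and 27.1% lower among 13205 named genes tested. For Lmo2 against the empty vector 125 were tested, of which 98 were called higher and 11 lower, against 31.1% and 37.8% of 12912 named genes. The median differences were 3.29 and 1.5, against -0.01 and -0.03 over all named genes tested. These lists were drawn up with such results known, and the 200 genes include the 77 raised genes, so that the counts describe the lists and support nothing. With only probes above background on all 4 arrays, 63 in place of 131 list genes were called higher in pro-B(+) cells.

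To see what the vector and the culture did without Lmo2, Mock was compared with pro-B(-) cells. This contrast was not used by the rule, but both of its groups entered A or B. The demand on A preferred genes low in pro-B(-) cells, and that on B preferred genes high in Mock. Both favour a rise in Mock, so that the counts describe the genes and support nothing. Of the 143 genes 52 were tested, being above background on both Mock arrays or both pro-B(-) arrays, and 24 were called higher and 19 lower in Mock, against 30.9% and 29.9% of 12882 named genes. Among the 38 genes above background on both pro-B(-) arrays, 14 were higher and 19 lower. The other 14 were tested only through Mock, which favours a rise, and 10 of them were higher. Slide, vector, time in culture and any difference in stroma or Notch ligand cannot be told apart. When both groups had to be above background on both arrays, 14 were higher and 11 lower; with all probes tested, 33 were lower.

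In several members Mock lay well above the pro-B(-) line. Lgals3 and Mdfic were named for this difference, and the values of both groups entered the rule. The p-values in this paragraph are therefore descriptive and support nothing. Lgals3, a galectin of macrophages that binds glycans, had the highest signal of all 143 genes, with 4.66 and 4.69 on the pro-B(+) arrays, -1.57 and -1.65 on the pro-B(-) arrays, 2.20 and 2.25 on the Mock arrays and 2.88 and 2.86 on the LMO2 arrays. Mock was 14.3-fold higher than pro-B(-) (log2 3.83, SE 0.042, adjusted p = 9.1e-07, limma), and LMO2 stayed 3.49-fold under pro-B(+) cells. Mdfic, an inhibitor of MyoD-family factors, gave -0.95 and -0.89 on the pro-B(+) arrays, -5.15 and -5.22 on the pro-B(-) arrays, -2.78 and -2.70 on the Mock arrays and -2.04 and -2.07 on the LMO2 arrays. Mock was 5.46-fold over pro-B(-) cells (log2 2.45, SE 0.047, adjusted p = 2.8e-06, limma). Pecr, described above, was 4.9-fold higher in Mock (log2 2.29, SE 0.096, adjusted p = 2.4e-05, limma), and Tgfbi 2.89-fold (log2 1.53, SE 0.037, adjusted p = 4.6e-06, limma). In each of these genes the groups did not overlap.

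Further genes were above background in Mock but on neither pro-B(-) array, so that their rise is a bound and no test is given. Rusc2, a scaffold protein of vesicle transport, gave -3.84 and -3.87 on the pro-B(+) arrays, -7.22 and -7.20 on the pro-B(-) arrays, -4.41 and -4.38 on the Mock arrays and -3.48 and -3.50 on the LMO2 arrays. Mock was at least 2.66-fold over pro-B(-) cells, and the LMO2 arrays exceeded the pro-B(+) arrays. Amot, a scaffold of cell junctions, gave -2.81 and -2.82 in pro-B(+), -8.06 and -7.72 in pro-B(-), -5.61 and -5.25 in Mock and -4.47 and -4.58 in LMO2 cells. The syntaxin gene Stx3 gave -3.56 and -3.65, -7.88 and -7.56, -5.43 and -5.37 and -5.01 and -5.04, and the BMP receptor Bmpr1a -4.61 and -4.29, -7.98 and -7.57, -5.46 and -5.50 and -5.09 and -5.05 in the same order. Eps8, an adaptor of receptor tyrosine kinases and actin, was above background on 1 pro-B(-) array (-5.67 and -5.69 on both) and gave -3.56 and -3.13 in Mock and -2.99 and -2.69 in LMO2 cells. In these genes LMO2 lay above Mock by less than 2-fold, as the rule demanded.

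**Figure D5:**
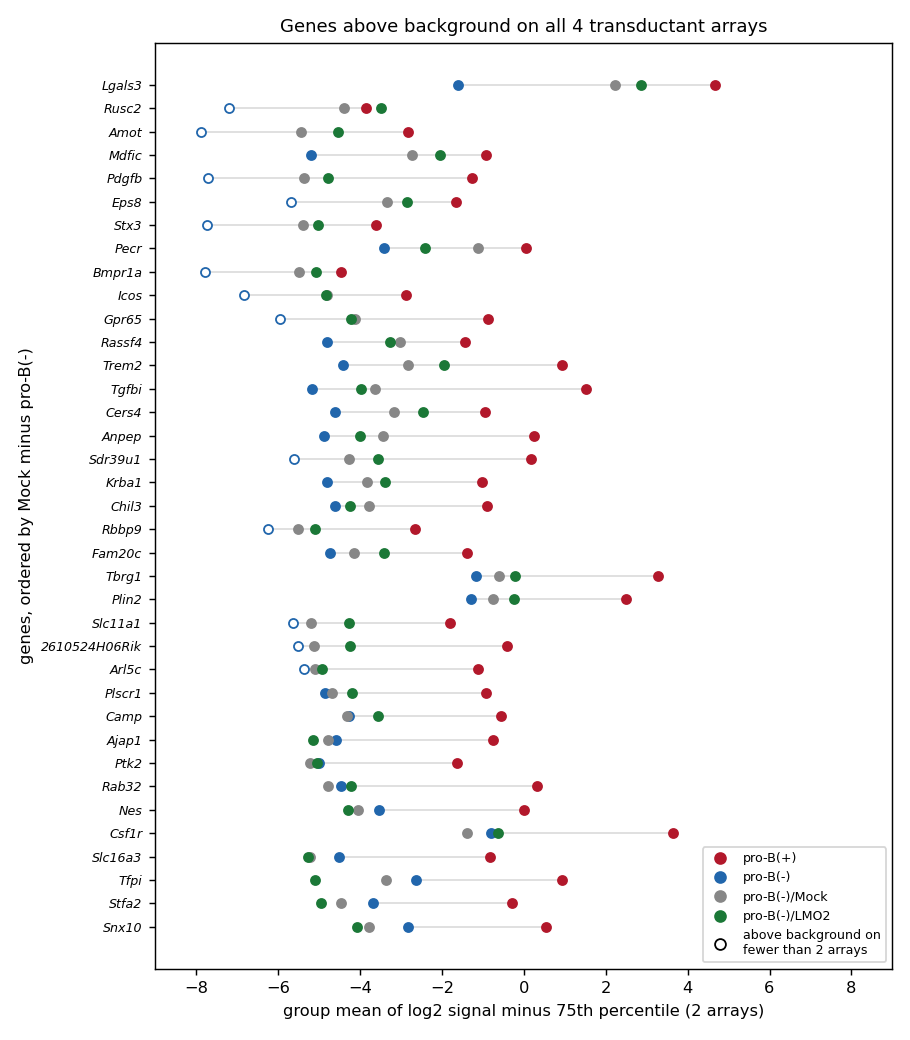
Group means (2 arrays each) of log2 intensity minus the 75th percentile for 37 of the 38 genes above background on all 4 transductant arrays, ordered by Mock minus pro-B(-); grey lines join the parental lines, and open points belong to groups above background on fewer than 2 arrays. From Lgals3 down to Fam20c the Mock point lies clearly right of the pro-B(-) point, and at the bottom (Tfpi, Stfa2 and Snx10) it lies left of it.

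Other members were lower in Mock, and where Mock was below background the difference is again a bound with no test. Lysmd2, a LysM-domain protein, gave -0.42 and -0.41 on the pro-B(+) arrays, -4.53 and -4.58 on the pro-B(-) arrays, -8.56 and -8.27 on the Mock arrays and -8.11 and -8.56 on the LMO2 arrays. It was measured in the parental lines and in neither transductant, at least 2.92-fold lower in Mock than in pro-B(-) cells. The secreted protease Klk8 (at least 2.43-fold), Insm1 (at least 1.97-fold) and the Golgi mannosidase Man1c1 (at least 1.7-fold) were also below background in both transductants. For these genes the empty vector line was further from pro-B(+) cells than the parental pro-B(-) line was.

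Of the 44 genes above background on both Mock arrays, 9 had a B of -1 or less. Among them were Syce2, Ydjc, Ctsg, Rasgef1b, Tfpi, Atp1b1, Pecr and Kcne3. Syce2, a component of the synaptonemal complex of meiosis, gave 2.72 and 2.75 on the pro-B(+) arrays, -1.29 and -1.37 on the pro-B(-) arrays, -2.02 and -1.98 on the Mock arrays and -6.35 and -6.50 on the LMO2 arrays. It was at least 16.2-fold lower with Lmo2 than with the vector alone, the largest such fall among the 143 genes, while Mock and pro-B(-) differed by 1.59-fold. Ydjc, a homologue of carbohydrate deacetylases, gave 2.34 and 2.44 on the pro-B(+) arrays, -2.85 and -2.99 on the pro-B(-) arrays, -5.06 and -4.86 on the Mock arrays and -7.84 and -7.46 on the LMO2 arrays, and was thus lower at each step, at least 2.08-fold from Mock to LMO2. Kcne3, a subunit of potassium channels, gave -0.32 and -0.28 on the pro-B(+) arrays, -3.59 and -3.66 on the pro-B(-) arrays, -5.07 and -5.10 on the Mock arrays and -6.35 and -6.18 on the LMO2 arrays. Atp1b1, a subunit of the sodium pump, gave -5.01 and -5.50 in Mock and -6.28 and -6.96 in LMO2 cells, where it was not above background, so that the difference was at least 1.69-fold.

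Against pro-B(+) cells, the LMO2 cells remained lower for 141 of the 143 genes, 140 of them by 2-fold or more, while 1 gene was higher and 1 was not called; over 13540 named genes tested, 35.0% were higher and 43.1% lower. The rule fixed most of this count, since it asked for high pro-B(+) signals, and nothing is read from it. The gene that was higher was Rusc2, and the gene not called was Maf. Over the 38 genes measured on all transductant arrays the median of LMO2 minus pro-B(+) was -3.31, and in 2 of them, Rusc2 and Bmpr1a, LMO2 lay above pro-B(+) or within 2-fold below it. In the same 38 genes B was -1 or less in 3, between -1 and 0 in 11 and 0 or more in 24.

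Among members outside the lists (73 of 143) were strongly expressed genes such as Tbrg1, a growth regulator induced by TGF-beta, with 3.25 and 3.29 on the pro-B(+) arrays, -1.22 and -1.12 on the pro-B(-) arrays, -0.65 and -0.58 on the Mock arrays and -0.21 and -0.21 on the LMO2 arrays. The groups stood in the order pro-B(-), Mock, LMO2 and pro-B(+) without overlap. Anpep, the cell surface aminopeptidase CD13 of myeloid cells, gave 0.19 and 0.31 on the pro-B(+) arrays, -4.69 and -5.04 on the pro-B(-) arrays, -3.47 and -3.40 on the Mock arrays and -3.88 and -4.11 on the LMO2 arrays, with LMO2 under Mock. Rab32, a small GTPase of lysosome-related organelles, gave 0.61 and 0.04 on the pro-B(+) arrays, -4.44 and -4.50 on the pro-B(-) arrays, -4.70 and -4.87 on the Mock arrays and -4.26 and -4.16 on the LMO2 arrays, and its pro-B(+) arrays differed from each other more than those of most genes. Pygl, the liver-type glycogen phosphorylase (-1.36 and -1.28), Bend5 (-1.40 and -1.44) and the peptide transporter Slc15a2 (-2.38 and -2.39 on the pro-B(+) arrays) were above background in pro-B(+) cells only.

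A second probe allowed a further look at the parental difference. Of the 143 genes 32 had 38 other probes, 29 of which (24 genes) were above background on both pro-B(+) arrays. A reached 3.32 for 14 of these, lay between 1 and 3.32 for 14 and was under 1 for 1. The last of these belongs to Csf1r. B was under 1 for 26 of the 29, and of the other 3 probes 1, also of Csf1r, was above background on both LMO2 arrays. The dimmer probe of a gene often gave a smaller parental difference on the same arrays. However, the genes had been chosen by the A of their brightest probe. For Csf1r, Olfm1, Prkcb, Slc16a3, Plscr1 and Kcne3 a dimmer probe gave a larger A, as in Olfm1 (6.8 against 4.07).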

How the data were processed

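Total RNA of pro-B lines lacking Ebf1, in 4 groups of 2 arrays, was labelled and hybridised to one-colour Agilent mouse arrays. The authors deposited, per the file headers, scanner intensity values written by Agilent Feature Extraction, in which the processed signal is already background subtracted and holds a positive surrogate at or under background. The authors also deposited log2 values scaled to the 75th percentile of each array, which equalled log2 processed intensity up to 1 constant per array for probes with a single spot; these chose the genes. The titles gave groups and replicate numbers.

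Control and outlier-flagged spots were removed, the spots of a probe were averaged on the log2 scale and the 75th percentile was subtracted, which left 39378 probes. A symbol was given to 26550 of them (67.4%) through transcript accessions matched without versions to RefSeq (GRCm38.p6); since the array was annotated on another build, no gene coordinates are given beside those of the promoter windows. Per array, 56.5% to 61.2% of probes exceeded background by the scanner flag, and the number of arrays limits the precision.

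All 8 arrays entered 1 limma 3.58.1 fit (R 4.3.3) of 4 group means with empirical Bayes moderation. A probe was tested when flagged above background throughout at least 1 group compared, and was called where its p, adjusted by Benjamini-Hochberg over all probes tested, was under 0.05; an exact permutation test of 2 arrays against 2 cannot go below 0.333. The fit was tested on simulated data. "At least" folds set a group above background on no array to the mean, per array, of the higher of its lowest signal well above background and the signal of the probe.

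Members and gene lists were chosen with earlier results of these data known. Named were the genes with the highest A measured on all parental arrays, the lowest B, the highest and lowest Mock minus pro-B(-), up to 4 genes of each list with the highest pro-B(+) signal, and the genes next to a threshold; further genes were named after their values were seen, and 1 gene that the rule names is not reported here. Promoter windows were the 250 bases before the most upstream RefSeq start site, aligned with Biopython 1.88 in Python 3.11.15. Alternatives were the scaling, background correction, filter, arrays in the fit, a replicate block and each array left out. Correlations of replicate differences between groups (-0.03 to 0.05 over 20364 probes) gave no sign that the replicate numbers pair the arrays.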

Additional observations from a re-analysis of the deposited data

How the results depend on the processing

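The number of genes meeting the rule was 143 on the scanner values too, with all 143 shared. It fell to 126 with arrays centred on the median, which lowers every A by 0.28 and every B by 0.21, and was 135 with the mean over all probes of a gene. Normexp background correction with quantile normalization, which adds an offset and shrinks the differences of dim probes, left 23 genes (14 shared), and 38 were also above background on both pro-B(-) arrays. Leaving out single arrays gave 137 to 151 genes. When only probes above background on all 4 arrays of a comparison were tested, fewer genes entered: 14 in place of 24 were higher and 11 in place of 19 lower in Mock than in pro-B(-), 38 in place of 141 were lower in LMO2 than in pro-B(+), and 63 in place of 131 list genes were higher in pro-B(+). With all probes tested, 33 were lower in Mock. Single arrays left out gave 23 to 27 higher and 18 to 21 lower in Mock, 140 to 142 lower in LMO2 than in pro-B(+), and 91 to 92 genes dim on all transductant arrays still kept, against 90. For list genes the ranges were 125 to 129 higher and 9 to 12 lower in pro-B(+), and 95 to 103 higher and 9 to 11 lower with Lmo2. The replicate block gave 24 higher and 19 lower in Mock and changed no count by over 1.5 times. Of 36 genes followed under the alternatives with a value for Mock against pro-B(-), the sign turned for Camp (0.01 with normexp, and -0.16 to 0.05 with single arrays left out, the latter without Mock replicate 1) and Ctsg (-0.59 to 0.76 with single arrays left out, the former without Mock replicate 2), both not called in the fit of all arrays; of 562 alternative values 2 lost and 10 gained a call. Symbols of the scanner files were not run as an alternative, since these hold accessions only, and the normexp form used the median spot signal, chosen after seeing the data. The floor was also taken from the lowest signal above background, which left 85 genes dim. The low signal over background in pro-B(-) cells and transductants limits most of the folds.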
